A study of Zea mays with 6 samples.

Results

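The broadest H3K4me3 regions of the maize leaf are the H3K4me3 regions that overlap an H3K9ac region and are among the longest 5% of all H3K4me3 regions, counted as end minus start plus 1. The threshold fell at 1383 bp, and 1513 of 32908 regions met both conditions; they are called broad regions here. The other 28338 H3K4me3 regions that overlap an H3K9ac region are the set they were compared with. Another 3057 regions overlapped no H3K9ac region, 135 of them long enough to reach the threshold.

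Both zones came from the third leaf of untreated plants of the inbred line B73, aged 13 to 14 days from sowing when that leaf had fully expanded. Days had 16 h of light at 25 °C with a photon flux of 130 µmol m-2 s-1, and nights 8 h at 20 °C. The maturing zone is a piece of 4 cm cut from the blade, midway along the part exposed to light; the base is the 1 to 2 cm at the bottom of those leaves, still shielded from light. In each zone H3K4me3, H3K9ac and transcripts were measured from whole leaf pieces that mix all leaf cell types. Each RNA replicate pooled 6 plants and each chromatin replicate 10 plants, so 1 library averages over its plants. With no genotype or treatment varied, zone, light and cell age cannot be told apart.

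Histone H3 trimethylated at lysine 4 (H3K4me3) marks the start of transcribed genes, usually as a narrow peak over the first nucleosomes. Acetylation of lysine 9 (H3K9ac) marks the same promoters and is set and removed by acetyltransferases and deacetylases. In animals, unusually wide H3K4me3 domains are known from genes of cell identity; how general that is in plants is less settled.

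The 4 RNA libraries held 50657759 and 18325106 exon reads (maturing zone A and B) and 44243772 and 24205348 (base A and B). The zone labels held: 6 of 6 mesophyll and bundle sheath markers stood higher and 2 of 2 replication helicase genes lower in the maturing zone, with PEP carboxylase (GRMZM2G083841) at 9504 and 13901 CPM (reads scaled to the library's TMM-corrected size) in the maturing zone and 8.33 and 9.21 in the base. The chromatin tables give only the authors' average normalized reads per region and zone, with no values per replicate, so no spread stands beside them and their depth is not analysed here. A region is called gained or lost when the authors' deposited table lists it higher or lower in the maturing zone at FDR under 0.05. The p-values for transcripts measure the spread between the 2 libraries per zone, which the labels describe as separate plant pools.

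Broad regions had a median length of 1582 bp, with quartiles of 1469 and 1743 bp. The other overlapping regions had a median of 807 bp, with quartiles of 796 and 861 bp, and the commonest length among all H3K4me3 regions was 794 bp. The longest broad region reached 3341 bp. The length distribution has no gap at the threshold: the 3 shortest broad regions were 1383 bp long and lay next to GRMZM5G883072, GRMZM2G413750 and GRMZM2G383404, and the 3 longest overlapping regions below it were 1382 bp long and lay next to GRMZM2G109643, GRMZM5G859053 and AC209050.3_FG003. Of the 3 just inside, 1 was lost and 2 were not called; of the 3 just outside, 1 was gained and 2 were not called. The next gene is the one the deposited table assigns to a region; where a region lies relative to exons and introns is not analysed here.

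**Figure D1:**
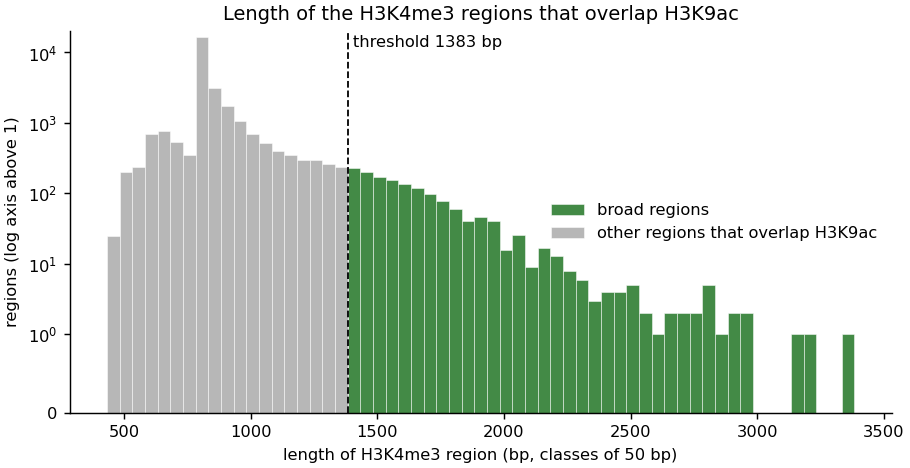
Number of regions (vertical axis, logarithmic above 1) by length in classes of 50 bp (horizontal axis) for broad regions in green and the other H3K9ac-overlapping H3K4me3 regions in grey. The dashed line is the threshold of 1383 bp; the count declines across it without a gap, and broad regions extend to 3341 bp.

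Per base, broad regions carried about as much H3K4me3 as the others. Their median signal was 266 normalized reads per kb in the maturing zone and 259 in the base, against 247 in the maturing zone and 251 in the base for the other regions, ratios of 1.08 and 1.03. The middle ranges overlap almost wholly: quartiles in the maturing zone were 128 and 441 for broad and 111 and 418 for other regions. Summed over the region, the medians were 438.64 and 427.47 normalized reads in the maturing zone and the base for broad regions, against 207.41 in the maturing zone and 208.41 in the base for the others, which is 2.11 and 2.05 times as much. The sum differed about as much as the length did. The next genes were annotated as protein coding at 86.1% of broad and 77.5% of other regions, as low confidence at 12.1% and 16.5%, and as transposable elements at 1.78% and 5.68%.

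H3K4me3 was called different between the zones at 545 of 1513 broad regions (36.0%), 279 gained (18.4%) and 266 lost (17.6%). Over all H3K4me3 regions the shares were 25.6% in either direction, 11.3% gained and 14.3% lost, and among the other overlapping regions 24.7%, 11.0% and 13.6%. The median log2 ratio of maturing zone over base was 0.03 in broad and 0.02 in other regions, on averages the authors had already normalized. The size of the ratio, without its sign, had a median of 0.65 on the log2 scale in broad regions and 0.47 in the others. Of the called broad regions, 265 were gained and 255 lost at least 2-fold in the authors' deposited table. These were 17.5% and 16.9% of broad regions, beside 11.0% and 13.7% of all H3K4me3 regions.

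That share is not particular to the longest 5%. When the other regions were split into 5 length classes of equal size, a division made after the data had been seen, the called share from short to long was 32.2%, 13.6%, 17.4%, 25.7% and 34.4%. In the shortest class losses made up nearly all of it, 26.5% lost against 5.66% gained. The longest of these classes spans 887 to 1382 bp, and its 34.4% lies next to the 33.5%, 36.5% and 38% found in 3 length classes of broad regions. Other regions ranked between the longest 10% and the longest 5% were called at 36.1%, 15.5% gained and 20.6% lost. Within the broad set the gained share was 15.3%, 19.4% and 20.6% from short to long and the lost share 18.3%, 17.1% and 17.4%. These shares are descriptions of the authors' calls and were not tested against each other.

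**Figure D2:**
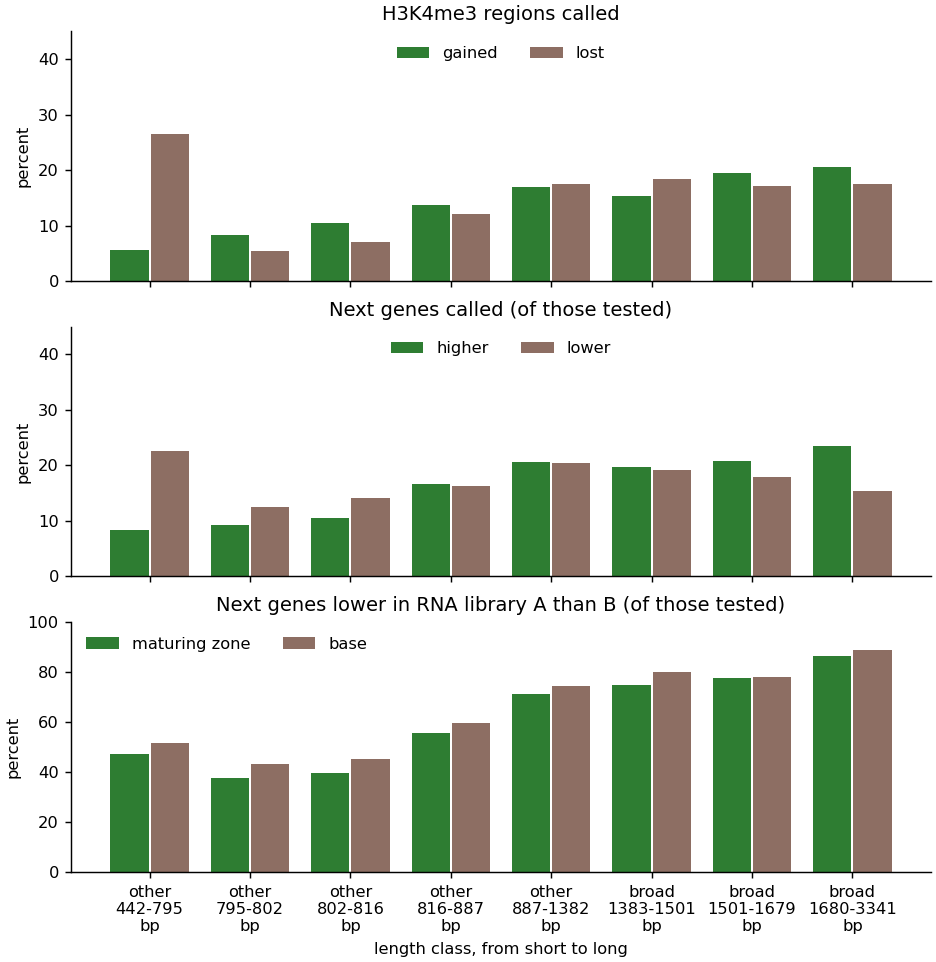
Percent of H3K4me3 regions gained and lost (top), percent of tested next genes whose transcripts were called higher and lower there (middle) and percent of tested next genes lower in RNA library A than in library B (bottom; maturing zone in green, base in brown), by region length from short to long. The longest class of other regions, 887 to 1382 bp, stands close to the 3 broad classes in the upper 2 panels, and from the second class on the bottom panel climbs with length among the other regions in both zones.

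H3K9ac covered less of a broad region. The median share of its bases under H3K9ac was 63.5%, against 78.5% in other regions. Region length divides this share and also chose the set, so the 2 cannot be told apart. The median was 73.6% in other regions of 887 to 1382 bp and 66.5% in those between the longest 10% and the longest 5%. Within the broad set it was 63.2%, 63.1% and 64.1% from short to long. The H3K9ac regions overlapping a broad region also held less signal per kb of their own length. Their medians were 375 normalized reads in the maturing zone and 441 in the base, against 460 in the maturing zone and 526 in the base for those on other regions. In all, 382 broad regions (25.2%) overlapped 2 or more H3K9ac regions, 10 of them 3, and 190 other regions (0.67%) did. A longer interval can overlap more regions, so this contrast cannot be told apart from the length that chose the set. Within the broad set the share was 11.5%, 21.8% and 42.4% from its short to its long class.

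The 1905 H3K9ac regions on broad regions were gained in 621 cases (32.6%) and lost in 727 (38.2%), 70.8% in either direction. All H3K9ac regions stood at 33.0% gained, 33.8% lost and 66.8% in either direction, and those on other H3K4me3 regions at 24.8%, 35.7% and 60.4%. Against all H3K9ac regions the broad set is therefore close to the background. Both marks were mostly called in the same direction where H3K4me3 was called. Of 279 gained broad regions, 253 (90.7%) held a gained H3K9ac region and 11 a lost one; of 266 lost ones, 260 (97.7%) held a lost H3K9ac region and 3 a gained one. Among other regions the matching shares were 84.2% and 93.6%.

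In 25 of the 382 broad regions with several H3K9ac regions (6.54%), 1 of these was gained and another lost, at a rate near that of 14 of 190 other regions (7.37%). At the longest broad region, on chromosome 2 from 4192439 to 4195779 (B73 RefGen_v3 build, used for all positions), H3K4me3 itself was not called, with 1133.27 normalized reads in the maturing zone and 944.12 in the base. The H3K9ac region at its low-coordinate end, assigned to the lipoxygenase gene lox6 (GRMZM2G040095), was lost, with 429.72 in the maturing zone and 664.05 in the base, while the one at the other end, assigned to the low-confidence gene GRMZM2G342564, was gained, with 565.11 in the maturing zone and 200.81 in the base. No reads were counted for GRMZM2G342564 in any library, whereas lox6 had 389.8 and 1049 CPM in the maturing zone and 74.4 and 303.5 in the base, which differ by 1.93 ± 0.96 on the log2 scale (± SE here and below, from 2 libraries in each zone; edgeR adjusted p = 0.185). The second longest, 3218 bp on chromosome 3 from 221623560 to 221626777 next to GRMZM2G059392, was gained for H3K4me3 with 1772.17 normalized reads in the maturing zone and 560.43 in the base. It too held a lost H3K9ac region, at 185.64 in the maturing zone and 240.09 in the base, and a gained one, at 570.73 in the maturing zone and 419.13 in the base. Its next gene had 306.5 and 579.8 CPM in the maturing zone and 2.90 and 9.36 in the base, and rose by 6.18 ± 0.96 on the log2 scale (edgeR adjusted p = 0.0149). In such whole leaf pieces, a change in the share of a cell type and a change in RNA per cell cannot be told apart.

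The same arrangement, chosen here after its values were seen, stood next to GRMZM2G320269 on chromosome 1 from 222256733 to 222258567. There 1 H3K9ac region had 286.7 normalized reads in the maturing zone and 192.98 in the base. The other had 51.97 in the maturing zone and 457.1 in the base. H3K4me3 over both was lost, with 189.57 in the maturing zone and 399.79 in the base. The transcript of GRMZM2G320269 fell, with 0.840 and 1.18 CPM in the maturing zone and 21.4 and 56.1 in the base, a log2 difference of -5.28 ± 0.77 (edgeR adjusted p = 0.014). At GRMZM2G096831 on chromosome 7, whose H3K4me3 was gained, the H3K9ac pair stood at 192.33 and 72.79 in the maturing zone and 51.23 and 116.28 in the base, so the region with the higher acetylation differs between the zones.

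The other 6 of the 8 longest regions were mostly not called for H3K4me3. They lay next to AC200753.3_FG003, GRMZM2G082032, GRMZM2G036908, GRMZM2G396553, GRMZM2G313643 and GRMZM5G816086, spanned 2840 to 3178 bp, and only the one at GRMZM5G816086 was called, as lost, with 329.63 normalized reads in the maturing zone and 980.99 in the base. GRMZM5G816086 had no reads. Both H3K9ac regions on this interval were assigned to a different gene, GRMZM2G102959, and were lost, and that gene had 3.78 and 16.4 CPM in the maturing zone and 34.2 and 142 in the base (log2 difference -3.14 ± 1.04, edgeR adjusted p = 0.073). Next to the region at GRMZM2G313643, 1 H3K9ac region covered 27.9% of the bases and was lost, and the transcript fell, with 0.321 and 0.493 CPM in the maturing zone and 5.11 and 15.9 in the base (log2 difference -4.73 ± 0.95, edgeR adjusted p = 0.023). The transcripts of GRMZM2G082032, GRMZM2G036908 and GRMZM2G396553 differed by 2.32, 1.1 and 1.72 on the log2 scale with edgeR adjusted p of 0.24, 0.358 and 0.268. With the replicate letter as a block all 3 were called higher (edgeR adjusted p = 0.000151, 0.000954 and 0.001), and GRMZM2G036908 changed sign when scaled by library totals or with maturing zone library B left out.

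Taking the genes assigned to its H3K9ac regions into account, 209 broad regions (13.8%) touched 2 or more next genes, compared with 457 other regions (1.61%). A longer interval can overlap more H3K9ac regions and so more genes. This contrast too cannot be told apart from the length that chose the set. Of the 206 broad regions with exactly 2, both genes were found in the RefSeq table for 42, and 37 of these pairs were direct neighbours there. In 63 pairs both transcripts were tested: 2 pairs were both higher, 4 both lower, 1 was opposite, in 24 only 1 gene was called and in 32 neither. Whether these pairs agree more often than other neighbouring genes was not tested.

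The 5 broad regions with the largest H3K4me3 gain were nearly unmarked in the base. At GRMZM2G455869 on chromosome 5 from 10182971 to 10184453, the authors' averages were 198.38 normalized reads in the maturing zone and 1.5 in the base, the lowest base value listed for any region, so the log2 ratio of 7.05 rests on that lowest value. Its transcript had 234 and 114 reads in the maturing zone libraries A and B and 0 in both base libraries, at least 244-fold higher when the floor is set at 3 reads over both base libraries (edgeR adjusted p = 0.0142). The regions next to GRMZM5G804292, GRMZM2G074546, GRMZM2G326270 and GRMZM2G153920 had log2 ratios of 5.62, 5.50, 5.40 and 4.95. Their averages ran between 462.52 and 1313.01 in the maturing zone and between 10.98 and 42.34 in the base. GRMZM5G804292, a low-confidence gene, had no reads; the transcripts of the other 3 rose. GRMZM2G326270 had 1105 and 1492 CPM in the maturing zone and 2.5 and 2.99 in the base (log2 difference 8.89 ± 0.91, edgeR adjusted p = 0.013), and GRMZM2G153920 had 62.0 and 246 CPM in the maturing zone and 0.109 and 0 in the base (11.13 ± 1.54, edgeR adjusted p = 0.0138). All H3K9ac regions on these 5 were gained as well.

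The largest losses were smaller in log2 size than the largest gains. Next to GRMZM2G079123 on chromosome 1 from 213964970 to 213966363, the averages were 2.93 normalized reads in the maturing zone and 132.87 in the base, a log2 ratio of -5.50. Its transcript had 0.0741 and 0.395 CPM in the maturing zone and 24.0 and 43.1 in the base, and fell by 7.5 on the log2 scale (SE 1.04, edgeR adjusted p = 0.0138). The region assigned to the low-confidence gene GRMZM5G859194, which had no reads, had a ratio of -5.03, and H3K9ac covered 6.32% of its bases. That H3K9ac region was assigned to GRMZM2G021621, whose transcript had 1 read in each maturing zone library and 1351 and 2364 reads in base A and B, a ratio of 884 for the base over the maturing zone (95% exact binomial interval 244.5 to 7300.5, counting error only; edgeR adjusted p = 0.0131). The next 3 losses, at GRMZM2G160541, GRMZM2G066274 and GRMZM2G169782, had log2 ratios of -4.44, -3.83 and -3.82, and all 3 transcripts fell. GRMZM2G066274 had 0.0741 and 0.395 CPM in the maturing zone and 35.2 and 43.3 in the base (log2 difference -7.73 ± 0.98, edgeR adjusted p = 0.013). The calls for GRMZM2G160541 and GRMZM2G169782 (edgeR adjusted p = 0.0453 and 0.0314) did not hold without maturing zone library A (0.0991 and 0.153), and that for GRMZM2G160541 not without base library B either (0.181).

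The transcript comparison asked whether the next genes of broad regions differ between the zones. Broad regions had 1502 distinct next genes, of which 1212 passed the count filter and were tested; 176 had no reads in any library. In the edgeR fit 257 of the 1212 (21.2%) were higher and 214 (17.7%) lower in the maturing zone, 38.9% in either direction. Among all genes tested the shares were 13.5% higher, 15.8% lower and 29.2% in either direction, and among next genes of other regions 12.9%, 16.8% and 29.7%. In this fit the share of higher genes stood farther above the background than the share of lower genes. The shares called were not particular to broad regions. Next genes of the longest class of other regions, 887 to 1382 bp, were higher in 20.7% and lower in 20.4% of cases. For other regions ranked between the longest 10% and the longest 5%, the shares were 18.0% and 22.2%. The median log2 difference was 0.50 for broad next genes, -0.22 for the others and -0.13 for all genes tested. Under library totals, which moved the median of all genes tested to -1.27, the broad median was -0.68, so its sign depends on the scaling. In that fit 216 broad next genes (17.8%) were higher and 385 (31.8%) lower. The shares were 9.51% and 31.0% among all genes tested, and 8.6% and 32.7% among next genes of other regions.

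Because base and maturing zone came from the same leaves, same-lettered libraries were also treated as pairs. With the replicate letter as a block, edgeR called 48.1% of broad next genes higher and 37.9% lower, beside 35.6% higher, 40.4% lower and 76.0% in either direction among all genes tested. The split between directions also depended on single libraries. Without maturing zone library B, 221 broad next genes (17.7%) were higher and 224 (18.0%) lower, beside 10.4% and 10.5% of all genes tested in that fit. Their median log2 difference was then -0.27, below the -0.22 of all genes and above the -0.3 of next genes of other regions. With base library A left out, 207 (16.9%) were higher and 274 (22.4%) lower, beside 9.65% and 14.6%, with medians of 0.16 for broad next genes and 0.03 for all. So against all genes tested, in percentage points, the share of lower genes in these fits stood out at least as much as that of higher genes. As a ratio to all genes tested, the order was the other way without base library A. Against next genes of other regions, the share of higher genes stood farther above in both fits. With base library B left out the broad median was 1.11 and that of all genes -0.14, and with maturing zone library A left out they were 0.73 and -0.47. Without the count filter 27.8% of broad next genes were higher and 23.6% lower, beside 10.7% and 13.5% of all genes.

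Most next genes of broad regions stood lower in library A than in library B of the same zone. In library A, 79.5% of the 1212 genes stood lower than in library B in the maturing zone, and 82.3% in the base. Among next genes of other regions the shares were 49.0% in the maturing zone and 53.8% in the base, and among all genes tested 47.6% and 52.3% in the same order. The median log2 ratio of A over B was -1.20 in the maturing zone and -1.28 in the base for broad next genes, against 0.00 in the maturing zone and -0.11 in the base for the others. Under library totals the broad medians were -0.68 in the maturing zone and -1.04 in the base, and those of all genes tested 0.48 and 0.19 in that order, so the gap between the sets remained under both scalings. Other next genes whose exon length fell in the interquartile range of the broad set were lower in A in 43.6% of cases in the maturing zone and 47.8% in the base. The shares were larger where H3K4me3 was called: 86.9% in the maturing zone and 86.3% in the base at gained or lost broad regions, and 75.3% and 80.0% at broad regions not called. Next genes of gained or lost other regions were lower in A in 67.4% of cases in the maturing zone and 66.6% in the base. From the second of the 5 length classes of other regions to the longest the share was 37.5%, 39.6%, 55.5% and 71.4% in the maturing zone and 43.1%, 45.4%, 59.7% and 74.6% in the base, as the panel on libraries A and B shows. Its part in the transcript results above was not tested; the labels do not say how A and B differ beyond being separate pools.

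**Figure D3:**
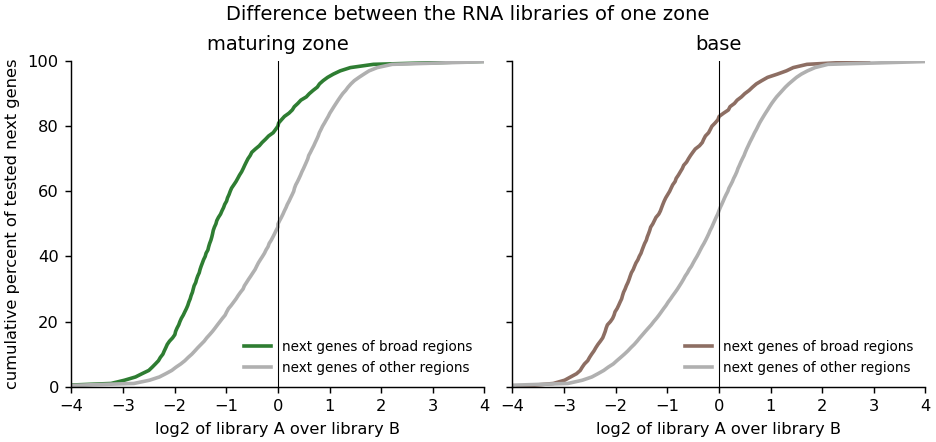
Cumulative percent of tested next genes (vertical axis) by the log2 ratio of RNA library A over library B (horizontal axis), in the maturing zone (left) and in the base (right). The curves of broad next genes, in colour, lie left of the grey curves of other next genes in both zones, with medians of -1.20 and -1.28 against 0.00 and -0.11.

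The level of broad next genes, per kb of exon, depended on the library in the same way. In TMM-scaled CPM per kb of exon, their medians were 1.38 and 2.75 in maturing zone A and B and 1.31 and 3.05 in base A and B. The medians for other next genes were 1.75 and 1.92 in maturing zone A and B and 2.40 and 2.66 in base A and B. Broad next genes were thus below the others in both A libraries and above them in both B libraries, and neither order describes the set. The upper quartile in maturing zone B was 18.6 for broad and 8.99 for other next genes.

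Transcript calls at broad regions went mostly the same way as the H3K4me3 calls. Of 231 gained regions with a tested next gene, 153 (66.2%) had one that was higher in the maturing zone, 0 had one that was lower and 78 had one not called. Of 221 lost regions, 151 (68.3%) had a next gene that was lower and 1 had one that was higher. At other regions the matching shares were 59.4% of gained regions with a higher next gene and 62.6% of lost regions with a lower one. At the 770 broad regions whose H3K4me3 was not called, 105 next genes (13.6%) were higher and 64 (8.31%) lower, beside 9.45% and 10.6% at other regions not called. Opposite calls were rarer than at other regions, where 39 of 2026 gained regions (1.92%) had a lower next gene and 58 of 2967 lost regions (1.95%) a higher one; these shares were not tested against each other.

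**Figure D4:**
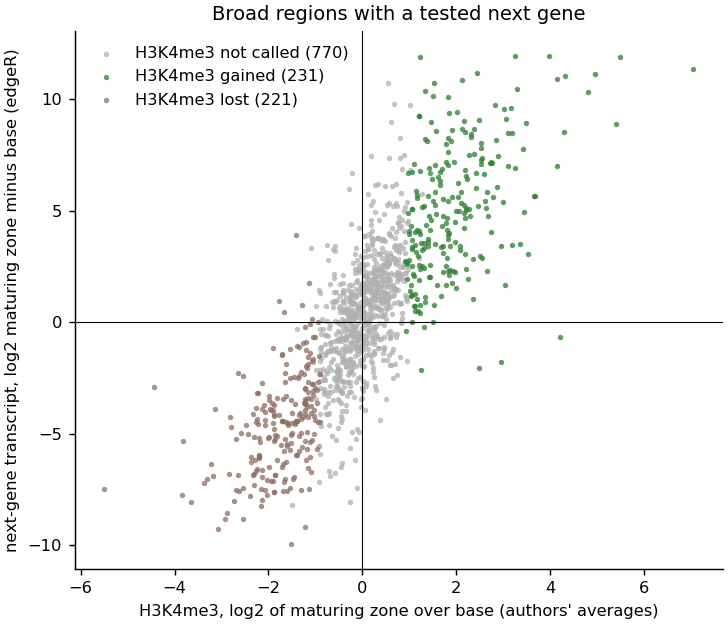
Log2 ratio of the authors' H3K4me3 averages, maturing zone over base (horizontal axis), and log2 difference of the next-gene transcript, maturing zone minus base (vertical axis), for each broad region with a tested next gene. The 231 gained regions (green) lie mostly upper right and the 221 lost regions (brown) mostly lower left, while the 770 regions not called (grey) spread along the vertical axis.

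The 5 largest transcript increases among broad next genes were at GRMZM2G056335, PEP carboxykinase (PEPCK, GRMZM2G001696), GRMZM2G074546, GRMZM2G455869 and GRMZM2G154752, and H3K4me3 was gained at each. GRMZM2G056335 had 88.1 and 389.9 CPM in the maturing zone and 0.0544 and 0.0610 in the base (log2 difference 11.96 ± 1.27, edgeR adjusted p = 0.013). GRMZM2G074546 was the next gene of 2 broad regions on chromosome 2, from 52379445 to 52381034 and from 52382273 to 52383669. Both were gained, with averages of 676.53 and 139.35 normalized reads in the maturing zone and 15 and 59.41 in the base, and its transcript had 416 and 1682 CPM in the maturing zone and 0.421 and 0.0915 in the base (11.91 ± 1.57, edgeR adjusted p = 0.0133). GRMZM2G154752 had 337 and 491 reads in the maturing zone and 1 and 0 in the base, a ratio of 1740.2 (95% exact binomial interval 311.5 to 68818; edgeR adjusted p = 0.0138).

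The 5 largest decreases were at GRMZM5G829436, GRMZM2G073003, GRMZM2G168404, GRMZM2G463493 and GRMZM2G055968, each at a region that lost H3K4me3. In the maturing zone GRMZM5G829436, GRMZM2G168404 and GRMZM2G463493 had no reads, so their bounds are at least 64.2-fold, 27.8-fold and 20.9-fold lower when the floor is set at 3 reads over both maturing zone libraries. The calls for GRMZM2G168404 and GRMZM2G463493 (edgeR adjusted p = 0.0245 and 0.0282) did not hold without maturing zone library A (0.0851 and 0.118). GRMZM2G073003 had 0.0741 and 0.197 CPM in the maturing zone and 70.5 and 72.5 in the base (log2 difference -9.29 ± 0.78, edgeR adjusted p = 0.013). H3K4me3 was still listed where no reads were counted for the next gene. GRMZM5G829436, a low-confidence gene, had an average of 422.6 normalized reads in the maturing zone and 1215.56 in the base. An H3K9ac region on that interval was assigned to another gene, AC234164.1_FG004, with 0.395 and 1.09 CPM in the maturing zone and 7.82 and 28.9 in the base. GRMZM2G168404 had 163.79 normalized reads of H3K4me3 in the maturing zone and 379.48 in the base.

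Of 10 C4 cycle genes listed, all next to an H3K9ac-overlapping H3K4me3 region, 2 (20.0%) were next to a broad one, compared with 1502 of 27455 next genes (5.47%). Genes of the photosystems and light harvesting were not analysed here as a list. PEPCK, which releases CO2 in the bundle sheath, had a gained region with 98.74 normalized reads in the maturing zone and 10.4 in the base. Its transcript had 8809 and 25156 CPM in the maturing zone and 7.69 and 0.945 in the base, and rose by 11.93 ± 2.35 on the log2 scale (edgeR adjusted p = 0.0221). At 60.9 normalized reads per kb in the maturing zone, its H3K4me3 was below the lower quartile of broad regions. NADP-malate dehydrogenase (mdh6, GRMZM2G129513), which makes malate in mesophyll chloroplasts, had 388.32 normalized reads in the maturing zone and 343.3 in the base and no call for either mark. Its transcript still rose, with 2857 and 2155 CPM in the maturing zone and 50.4 and 78.5 in the base (5.28 ± 0.91, edgeR adjusted p = 0.0171).

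Of 4 Calvin cycle genes, 1 was next to a broad region: Rubisco activase (rca1, GRMZM2G162200), which frees Rubisco of bound sugar phosphates. H3K4me3 there was gained, with 771.3 normalized reads in the maturing zone and 356.12 in the base, and the transcript rose, with 977 and 740 CPM in the maturing zone and 8.29 and 4.15 in the base (7.11 ± 0.86, edgeR adjusted p = 0.013). Among 3 chloroplast and leaf cell regulators, golden2-like 1 (glk1, GRMZM2G026833), a transcription factor of chloroplast development, lay next to a broad region of 2007 bp that was gained, with 777.58 normalized reads in the maturing zone and 320.72 in the base. Its transcript rose, with 299.7 and 598 CPM in the maturing zone and 4.01 and 20.5 in the base (5.19 ± 1.08, edgeR adjusted p = 0.0243). Rough sheath 2 (rs2, GRMZM2G403620) is a MYB factor that keeps KNOX genes off in leaf primordia. Of 3 leaf growth regulators matched by gene ID or symbol next to an overlapping region, it alone was at a broad one. Its transcript fell, with 0.222 and 2.07 CPM in the maturing zone and 21.1 and 76.2 in the base (-5.53 ± 1.34, edgeR adjusted p = 0.0341). H3K9ac there was lost, with 74.38 normalized reads in the maturing zone and 343.98 in the base. H3K4me3, with 177.14 in the maturing zone and 334.28 in the base, was not called. None of 9 matched cell cycle and DNA replication genes next to an overlapping region, and not the 1 matched clock gene, was next to a broad one. The share over all next genes was 5.47%, so lists this short cannot show an absence. The keywords for leaf growth, cell cycle and clock genes met symbols only. Members such as liguleless 2 (lg2), which lay at a broad region, were therefore missed.

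Genes of oxylipin and jasmonate synthesis and response were seen among the broad next genes and then counted by symbol, so their number carries no test. Only genes with a RefSeq name could be counted, whereas the share of all next genes also covers genes without one. Lipoxygenases oxidise polyunsaturated fatty acids, and allene oxide synthase and 12-oxophytodienoate reductases lead from there to jasmonate, a wound and defence hormone. Of 39 such genes next to an overlapping region, 9 (23.1%, beside 5.47% of all next genes) were next to a broad one: lox7, lox10, lox11, lox12, ts1, aos1, opr3, MYC2a and TIFY24. Of the 8 tested, 2 rose and 1 fell, a share near the 38.9% called among all broad next genes; opr3, with 2 to 8 reads per library, was not tested.

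Lox10 (GRMZM2G015419), the lipoxygenase behind green leaf volatiles, had 469 and 1112 CPM in the maturing zone and 27.5 and 81.3 in the base, and rose by 3.86 ± 0.92 on the log2 scale (edgeR adjusted p = 0.0329). TIFY24 (GRMZM2G126507), of the family that includes the jasmonate repressors, had 314 and 381 CPM in the maturing zone and 31.2 and 42.2 in the base (3.24 ± 0.57, edgeR adjusted p = 0.018). Both calls were lost without base library A (0.0698 and 0.0676). H3K9ac was gained and H3K4me3 not called at both. Allene oxide synthase aos1 (GRMZM2G067225) fell, with 2.40 and 7.60 CPM in the maturing zone and 135 and 459.5 in the base (-5.91 ± 1.06, edgeR adjusted p = 0.0185), at a region where H3K9ac was lost and H3K4me3, with 290.91 normalized reads in the maturing zone and 538.19 in the base, was not called.

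At lox12 (GRMZM2G106748), a 9-lipoxygenase, the marks and the transcript stood in opposite directions. H3K4me3 was gained, with 263.66 normalized reads in the maturing zone and 34.02 in the base, and H3K9ac was gained, with 170.96 in the maturing zone and 41.09 in the base. The transcript had 6.77 and 37.0 CPM in the maturing zone and 19.9 and 129 in the base, a log2 difference of -1.77 ± 1.16 (edgeR adjusted p = 0.295). With the replicate block it was called lower (edgeR adjusted p = 5.12e-05), but its sign turned with base library B left out, at 0.10. The block also called lox11 (GRMZM2G009479) lower, at -1.02 (edgeR adjusted p = 0.000616; 0.283 without the block), with both marks lost there, and tasselseed 1 (ts1, GRMZM2G104843), a lipoxygenase of jasmonate synthesis in the tassel, higher, at 3.05 (4.03e-06; 0.12 without the block). The transcription factor MYC2a (GRMZM2G001930) had 22.4 and 47.7 CPM in the maturing zone and 21.5 and 55.5 in the base, and lox7 (GRMZM2G070092) 0.642 and 2.96 in the maturing zone and 0.435 and 1.71 in the base; neither was called in either fit. All 8 tested genes of this list stood higher in library B than in library A in both zones, the difference between letters described above for broad next genes.

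**Figure D5:**
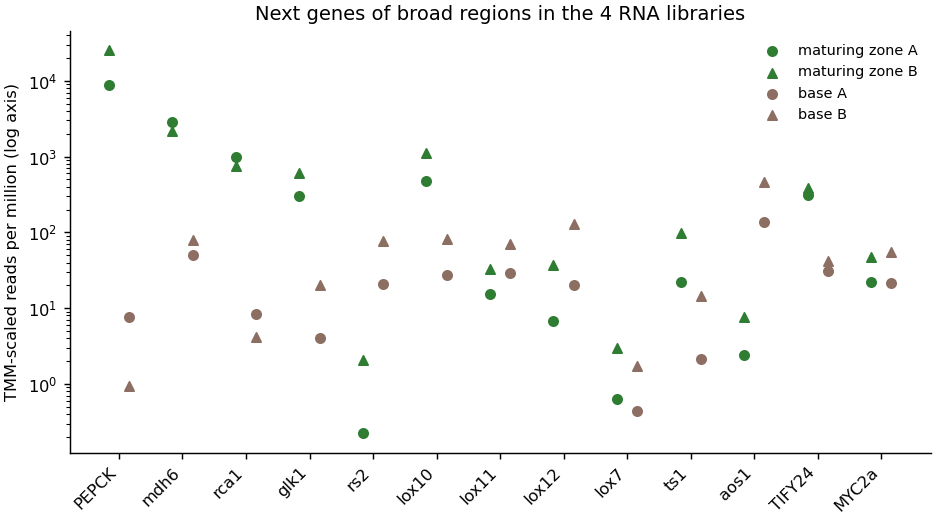
TMM-scaled CPM (vertical axis, logarithmic) of 13 next genes of broad regions in maturing zone libraries A and B (green circle and triangle) and base libraries A and B (brown circle and triangle). PEPCK, mdh6, rca1, glk1, lox10, ts1 and TIFY24 lie higher in both maturing zone libraries than in either base library, and rs2 and aos1 lower. The triangles lie above the circles for most genes.

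Transcription factor symbols, also listed after the values were seen and only for genes with a RefSeq name, named 42 broad next genes. These were among 333 next to an overlapping region (12.6%, beside 5.47% of all next genes, named or not). Of the 39 tested, 9 rose and 9 fell, where 21.2% of all broad next genes rose and 17.7% fell. The 4 with the highest level were COL8 (GRMZM2G114137), glk1, TIFY24 and EREB109 (GRMZM2G141679). COL8, a CONSTANS-like factor, rose with no H3K4me3 call, with 479 and 1176.5 CPM in the maturing zone and 9.01 and 28.7 in the base (5.46 ± 1.03, edgeR adjusted p = 0.0201), and its H3K9ac was gained. EREB109, of the ethylene response factor family, fell, with 26.4 and 37.3 CPM in the maturing zone and 118 and 231 in the base (-2.46 ± 0.60, edgeR adjusted p = 0.0344), with neither mark called; leaving out maturing zone library A (0.192), maturing zone library B (0.0724) or base library B (0.116) ended its call.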

How the data were processed

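Per the file headers, the authors deposited whole-number read counts over exons for 110149 gene features in 4 RNA libraries (A and B of each zone), with RPKM values that served here only to estimate exon length per gene. For 32908 H3K4me3 and 43734 H3K9ac regions the deposited tables list 1 averaged signal of normalized reads for each zone, with a signed fold and an FDR-corrected p-value from the authors. The header of the fold names the base first, but a positive fold went with the higher average in the maturing zone in 100% of regions. The submitters' processing notes name the B73 RefGen_v3 build, DiffBind 1.10.0, Trimmomatic 0.32, CASAVA 1.8.2 and edgeR. The aligner, the peak caller, the scaling of the averages and strandedness: not given in the sources used here. Reads of overlapping genes, antisense genes or near-identical copies may therefore be shared.

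Regions overlapped when they shared at least 1 base. Ties at the threshold of 1383 bp were kept. Transcripts were compared with edgeR 4.0.16 (R 4.3.3): filterByExpr with a minimum count of 10 left 26787 genes, libraries were scaled by TMM, and the quasi-likelihood test had no covariates, with Benjamini-Hochberg adjustment and calls under 0.05. Library totals ranged from 18325106 to 50657759 exon reads; intervals and floors cover counting error only. Only the main edgeR fit was also run on simulated counts. These held no A to B difference shared by the zones, and the outcome is not reported here. DESeq2 1.42.0 was an alternative. Regions were joined in Python 3.11.15, pandas 2.3.3 and numpy 2.4.6, and log ratios of levels a pseudocount of 0.1.

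Same-lettered libraries were taken as pairs because the labels say that both zones came from the same leaves, although they do not say that a letter marks 1 pool. Across 26787 genes, which are not independent, the A to B difference in 1 zone went with that in the other at r = 0.803.

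Named were the 8 longest regions, the 5 largest gains and losses, the 5 largest transcript increases and decreases among called genes, and up to 4 genes per list; outside that rule, all 9 oxylipin and jasmonate genes, 2 of the regions with opposite H3K9ac calls and the genes of leaf form, plastid and nitrogen were chosen after their values were seen. Of 1502 next genes, 883 matched RefSeq names (assembly Zm-B73-REFERENCE-NAM-5.0); that table holds no descriptions, so the lists that rest on descriptions (photosystems, histones, ribosomal proteins, auxin, chromatin enzymes) found 0 genes. Keywords of the Calvin cycle, leaf growth, cell cycle and clock lists could match symbols only, so those lists are incomplete. The regions, the lists and the tests were chosen with earlier results of these data known.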

Additional observations from a re-analysis of the deposited data

How the results depend on the processing

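Of 80 values for the set as a whole under the alternatives tried, 71 stayed within 1.5 times, the limit used for shares and ratios that carry no test, or, for level differences, kept their sign. Among these, the H3K4me3 ratio of broad over other regions per kb in the maturing zone turned to 0.991 for the longest 10%, against 1.08. Not dividing by length gave H3K4me3 ratios of broad over other regions of 2.11 in the maturing zone and 2.05 in the base. Taking the longest 10% gave 15.8% with several H3K9ac regions and a next-gene level in the maturing zone of -0.191 (log2, broad minus other; 0.124 for the longest 5%). Under library totals 31.8% of broad next genes were lower, beside 31.0% of all genes tested. The replicate block gave 48.1% higher and 37.9% lower, and it called 11 more of 46 named genes and lost none. The cause of these changes was not tested.

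Leaving out 1 library at a time gave 16.9% to 28.3% higher and 12.8% to 22.4% lower. The next-gene level of broad minus other ranged from -0.323 (without maturing zone library B) to 0.501 in the maturing zone and from -0.826 to 0.191 (without base library A) in the base. Scaling by library totals turned the signs of GRMZM2G036908 (-0.14), lox7 (GRMZM2G070092, -0.51), RLSB (GRMZM2G087628, -0.70) and rnc1 (GRMZM2G035820, -0.26), and the DESeq2 test put MYC2a (GRMZM2G001930) at 0.0. With single libraries left out, signs turned for 6 genes: GRMZM2G036908 ranged from -0.09 to 2.02, lox7 from -0.74 to 1.97, lox12 (GRMZM2G106748) from -3.46 to 0.10, MYC2a from -0.81 to 0.67, RLSB from -0.17 to 0.72 and NAR (GRMZM5G878558) from -2.30 to 3.33. With DESeq2 size factors GRMZM2G160541 lost its call (edgeR adjusted p = 0.0622).

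With 2 libraries per zone and averages only for chromatin, neither the share of broad regions called nor the difference between broad and other regions has a replicate error, and transcript changes of genes with few reads are bounded by counting alone.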

Other observations

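Several genes of leaf form, picked from the broad next genes after their values were seen, differed in how marks and transcripts stood. ERECTA (GRMZM5G809695), a receptor kinase of organ growth in Arabidopsis, had a lost broad region with 142.71 normalized reads in the maturing zone and 657.69 in the base, and its transcript fell, with 3.26 and 4.93 CPM in the maturing zone and 253.5 and 279.7 in the base (log2 difference -6.03 ± 0.64, edgeR adjusted p = 0.013). Pan1 (GRMZM5G836190), a receptor-like protein of asymmetric divisions in the stomatal lineage, fell by 4.37 on the log2 scale (SE 1.07, edgeR adjusted p = 0.0347), and ocl4 (GRMZM2G123140), a homeodomain factor of the epidermis, by 5.67 (SE 0.60, edgeR adjusted p = 0.013); H3K4me3 was lost at both. D8 (GRMZM2G144744), a DELLA repressor of the gibberellin response, had 1977.49 normalized reads of H3K4me3 in the maturing zone and 1961.95 in the base. Its transcript stood at 30.3 and 107 CPM in the maturing zone and 97.6 and 352 in the base (-1.71 ± 0.93, edgeR adjusted p = 0.216; 0.000194 with the replicate block). Liguleless 2 (lg2, GRMZM2G060216), which helps place the ligule, had a gained region, at 207.09 in the maturing zone and 68.82 in the base, and a transcript difference of 1.65 ± 0.62 (edgeR adjusted p = 0.101; 0.000112 with the block). The KANADI gene kan1 (GRMZM2G056400), whose Arabidopsis relative sets the lower leaf side, had no H3K4me3 call and a difference of 2.54 ± 0.88 (edgeR adjusted p = 0.0822; 4e-06 with the block).

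The genes of the plastid and of nitrogen use described here, picked in the same way, had broad regions with no H3K4me3 call. This is not general: of those described above, rca1 and the chloroplast regulator glk1 had gained regions, while mdh6 had no call. Gpa1 (GRMZM2G337113), a subunit of chloroplast glyceraldehyde phosphate dehydrogenase, rose with 1003 and 3177 CPM in the maturing zone and 9.12 and 51.2 in the base (6.11 ± 1.38, edgeR adjusted p = 0.029), and its H3K9ac was gained. TAB2 (GRMZM2G081955), which acts in photosystem I translation in Arabidopsis, had 415 and 1017 CPM in the maturing zone and 21.9 and 107 in the base (3.47 ± 1.05, edgeR adjusted p = 0.0575; 4.26e-05 with the block). The chloroplast splicing factor rnc1 (GRMZM2G035820) and the RNA-binding RLSB (GRMZM2G087628) differed by 0.83 and 0.37 (edgeR adjusted p = 0.271 and 0.677; rnc1 0.0195 with the block). The nitrate reductase NAR (GRMZM5G878558) had 9.04 and 258 CPM in maturing zone A and B and 13.0 and 75.4 in base A and B, so its libraries of 1 zone lie farther apart than the zones do.

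The 135 regions that were as long but overlapped no H3K9ac region carried far less H3K4me3, with medians of 73 normalized reads per kb in the maturing zone and 64.5 in the base. Their next genes had median levels under 0.1 TMM-scaled CPM per kb of exon in each of the 4 libraries. At 177 broad regions the next gene had no reads in any library; 132 of these genes were annotated as low confidence, and at 47 of the 177 an H3K9ac region on the same interval was assigned to another gene that was tested.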
